A study of Mus musculus with 6 samples.

Results

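The 26 genes described here encode the inhibitory side of the cerebellar synapse: the enzymes that make and break down GABA, the transporters of GABA and glycine, subunits of the GABA-A, GABA-B and glycine receptors, their postsynaptic scaffold and adhesion proteins, and the 2 cotransporters that set the chloride gradient. They were chosen by name as genes of this pathway and matched by symbol to the 24421 gene rows of the count files. All 26 had a row. Gabra6 and Gabrd, the GABA-A subunits that mark cerebellar granule cells, were kept apart from the other 24. Several genes of the same families are not among the 26 and were not analysed here.

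RNA came from the cerebellum of mice 1 year old, from the Purkinje neuron layer microdissected together with the molecular layer. The groups were 3 wild type (WT) mice and 3 STIM1 knockout (KO) mice, which the series text calls biological replicates. STIM1 is the sensor of calcium in the endoplasmic reticulum that opens Orai channels at the plasma membrane. The labels name no strain, no Cre driver and no removed exon, so it is not known in which cells Stim1 was deleted. The comparison asks how transcripts of this tissue differ between the genotypes.

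Fast inhibition in the brain uses GABA-A and glycine receptors, which are chloride channels built of 5 homologous subunits, whereas the GABA-B receptor is a heterodimer coupled to G proteins. Purkinje cells are themselves GABAergic and receive GABA from the basket and stellate cells of the molecular layer. Golgi cells release GABA and glycine onto granule cells, whose alpha6 and delta subunits form receptors outside the synapse that carry tonic inhibition. Bergmann glia and other astrocytes take GABA up.

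The 6 libraries held 645994 to 764839 counts in genes, 1.16% to 1.23% of the uniquely aligned reads, while 98.8% of those reads were assigned to no gene. The strand that was counted is not given in the sources used here, so it is not known for any gene below whether its counts are its own mRNA. Counts of Stim1 itself were 7, 21 and 3 across WT replicates 1 to 3 and 4, 3 and 2 across KO, too few to check the labels. Purkinje cell markers were present in every library, with 0 of 11 at 0 and a summed level of 2261 to 3678 CPM (counts scaled to a common library size). Y-linked genes had counts only in WT replicate 3 (28 counts) and KO replicate 3 (14 counts), which set these libraries apart from the other 4, and some differences below are also given without them.

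Because the strand is not known, exons shared with opposite-strand genes were looked up first. Of the 26, 4 share at least 50 bases (15.4%), against 22.2% of all 23334 genes with a position in GENCODE M21 (GRCm38) and 45.9% of the tested genes with one. The 4 are Slc32a1, Gabra5, Gphn and Glra1. The stretches of Gabra5 and Slc32a1 are shown because their shared bases are annotated to a different gene on each strand. Both are coding, written on the strand of the named gene in the GRCm38 sequence of GENCODE M21, with capitals for the bases that also lie in an exon of the opposite gene.
Gabra5: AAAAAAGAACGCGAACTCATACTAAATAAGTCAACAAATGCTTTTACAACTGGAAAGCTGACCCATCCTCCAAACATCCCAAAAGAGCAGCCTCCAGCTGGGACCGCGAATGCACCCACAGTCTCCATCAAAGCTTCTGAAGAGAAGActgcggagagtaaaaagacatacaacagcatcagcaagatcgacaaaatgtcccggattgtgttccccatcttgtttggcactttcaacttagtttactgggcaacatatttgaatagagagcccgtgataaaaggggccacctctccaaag
Slc32a1: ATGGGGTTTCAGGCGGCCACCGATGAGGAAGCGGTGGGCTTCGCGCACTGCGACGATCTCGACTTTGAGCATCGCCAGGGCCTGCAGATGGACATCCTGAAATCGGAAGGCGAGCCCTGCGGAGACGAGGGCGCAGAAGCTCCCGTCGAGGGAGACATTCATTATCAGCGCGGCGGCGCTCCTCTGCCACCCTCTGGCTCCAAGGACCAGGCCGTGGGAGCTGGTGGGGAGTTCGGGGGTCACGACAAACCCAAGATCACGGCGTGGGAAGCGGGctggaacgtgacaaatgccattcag
The Gabra5 stretch is the last coding block of the gene (chromosome 7, 57408610 to 57408909, minus strand). Its 148 capitals lie in an exon of the antisense RNA Gm9962. In the count files Gm9962 had 9, 9 and 7 counts in the WT libraries and 9, 3 and 3 in those of KO, while Gabra5 had 2, 0 and 0 in the WT libraries and 1, 0 and 0 in those of KO. The RNA annotated opposite Gabra5 thus held 40 counts in all, and Gabra5 itself 3. The Slc32a1 stretch ends the first exon of the gene (chromosome 2, 158611332 to 158611631, plus strand). Of its bases, 275 lie in an exon of the antisense RNA Gm14205, which had no row by that name among the counts.

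Members ranged widely in counts, and the filter of the test divided them. Only 13 of the 26 reached the minimum count for a test (edgeR's filter by expression with a minimum count of 10), with mean counts of 12.2 to 67.3 per library. Of the other 13, Gabra2, Glrb, Slc12a2 and Gabrb1 had 49 to 53 counts over the 6 libraries, Gabra3 23, Slc6a11 13, Gabrg1 9, Gabra5 3, and Slc6a5 and Glra1 2 each. Gabrg3, Glra2 and Glra3 had 0 counts in every library, which allows up to 3 counts, or 3.92 to 4.64 CPM, in a library. Such limits and the counting intervals below cover counting error only.

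Levels are compared between genes as CPM per kilobase of annotated exon, averaged over the 6 libraries. Over the 6 libraries Gabrd stood highest at 14.7, followed by Gabbr1 at 12.5, Gad1 at 12.5, Gabrb2 at 10.3, Gphn at 9.74, Slc12a5 at 9.09 and Slc32a1 at 8.03. Abat, Gabra6 and Gad2 lay at 7.19, 7.01 and 6.96 CPM per kilobase. The first place of Gabrd rests on the KO libraries (18.1 CPM per kilobase): in WT it had 11.3, below Gabbr1 at 13.7 and Gad1 at 12.6. Neighbours in this order overlapped in their library values. Gad1, at 12.5, lay in the top 9.58% of the genes with an annotated length. At the low end Gabrb1 had 0.875 CPM per kilobase, Slc6a11 0.633, Gabrg1 0.276 and Gabra5 0.239.

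**Figure D1:**
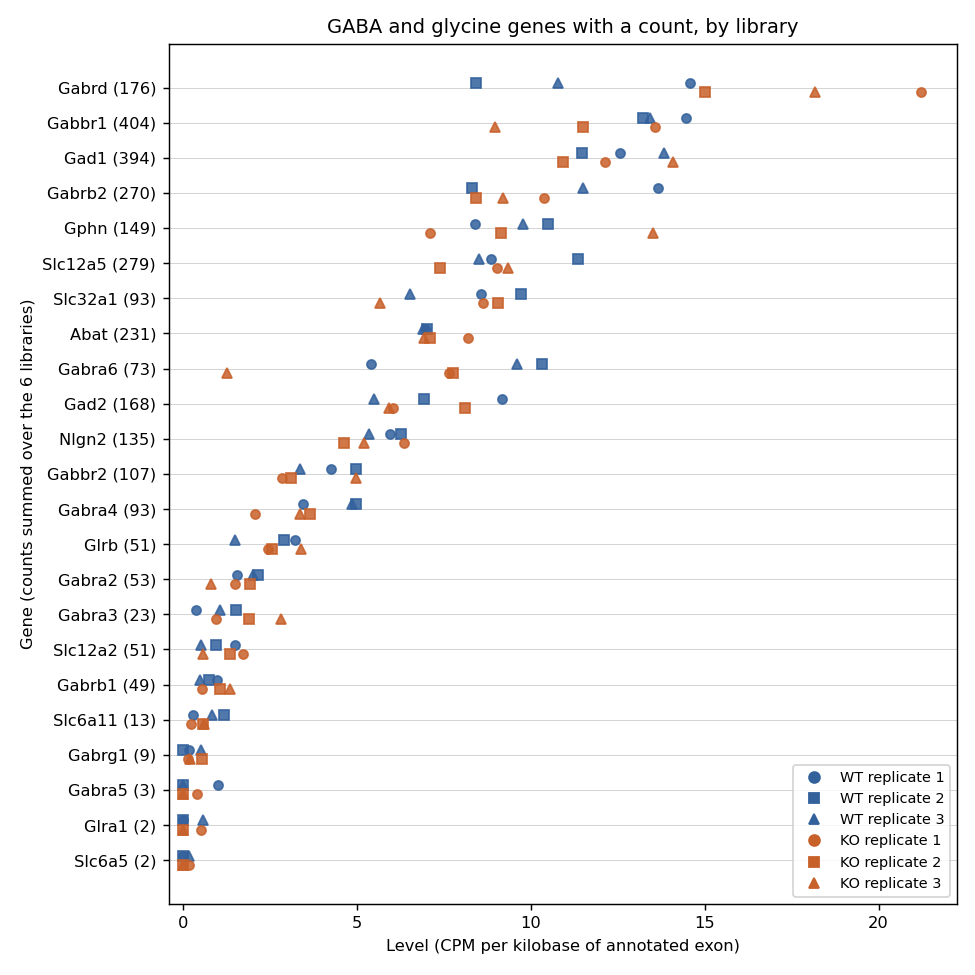
Level of each of the 23 genes with a count (CPM per kilobase of annotated exon, linear axis), with 1 point per library, blue for WT and orange for KO, and the counts summed over the 6 libraries in brackets. Gabrd, Gabbr1, Gad1 and Gabrb2 lie highest, the KO points of Gabrd lie to the right of its WT points, and Gabra6 has 1 low point, in KO replicate 3.

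For the genotypes, 0 of the 13 tested members passed edgeR's quasi-likelihood test at a Benjamini-Hochberg adjusted p of 0.05, the background being 0% of 5320 tested genes. Their adjusted p lay between 0.987 and 0.998. At an unadjusted p of 0.05, 1 of the 13 was called, Gabrd, where 4.62% of all tested genes (246) were. DESeq2 called 0 of 5320 after adjustment, and 96 genes (1.8%) before it, Gabrd among them. The CPM of WT and KO libraries did not overlap for 1 tested member, again Gabrd, against a background of 10.7% of tested genes (4.61% with KO higher, 6.13% with KO lower). Of all tested genes, 1.58% had an unadjusted p under 0.05 and were higher in KO, and 3.05% were lower. The log2 fold change (KO minus WT throughout) was below 0 for 10 of the 13 and above 0 for 3, beside 49.8% below 0 over all tested genes. The median over the 13 was -0.11 and over all tested genes 0.0017. The standard errors ran from 0.19 to 0.46, and for 10 of the 13 the 95% interval lay inside a 2-fold change in either direction. It did not for Gabra4, Gabra6 and Gabrd. For every tested member except Gabrd, leaving out some library moved the log2 fold change by over 1.5 times.

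**Figure D2:**
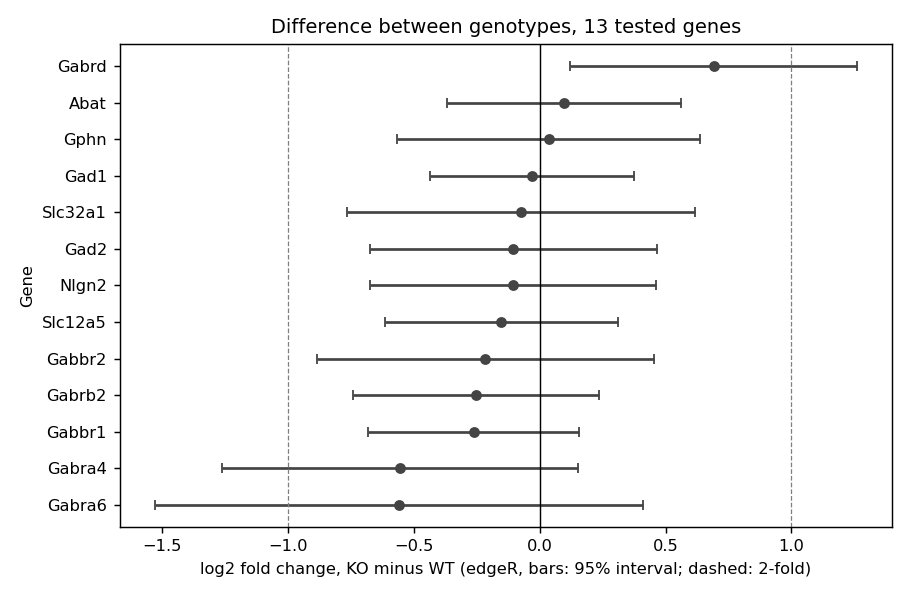
log2 fold change (KO minus WT) of the 13 tested genes from edgeR, with bars for the 95% interval and dashed lines at a 2-fold difference. Only the bar of Gabrd leaves out 0, with no adjustment for the number of genes, and those of Gabra4, Gabra6 and Gabrd cross a 2-fold line.

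The genes of GABA synthesis and breakdown did not pass the test. Gad1 encodes the glutamate decarboxylase of the cell body and axon that makes most brain GABA. It had 95.9, 87.7 and 106 CPM in WT replicates 1 to 3 and 92.7, 83.4 and 108 in KO. The genotypes covered the same range, with a log2 fold change of -0.03 (SE 0.19, 95% interval -0.44 to 0.38). Gad2, the decarboxylase tied to nerve terminals, had 54.0, 40.8 and 32.4 CPM in WT and 35.6, 47.7 and 34.8 in KO. The WT libraries spread more widely than the genotypes differed (log2 fold change -0.11, SE 0.27). It was 0.10 without WT replicate 1, -0.28 without WT replicate 3 and -0.20 without both libraries with Y-linked counts. Within a library, counts of Gad1 exceeded those of Gad2 by 1.20 ± 0.44 on the log2 scale for WT and 1.26 ± 0.42 for KO (SD, n = 3 each). Abat, the transaminase that breaks GABA down, had 54.0, 54.4 and 53.5 CPM in WT and 63.5, 55.1 and 53.8 in KO. Its WT libraries were the tightest of any tested member (54.0 ± 0.463 CPM, SD, n = 3), and KO replicates 1 and 2 lay above all of them, replicate 2 by little (log2 fold change 0.10, SE 0.22, and 0.01 without KO replicate 1).

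Among the transporters, Slc32a1, which loads GABA and glycine into synaptic vesicles, had 24.0, 27.2 and 18.3 CPM in WT and 24.1, 25.3 and 15.8 in KO. In both genotypes replicate 3 was the lowest library, and the log2 fold change was -0.07 (SE 0.33). Slc6a11, a GABA transporter of astrocytes, had 1, 4 and 3 counts in the WT libraries and 1, 2 and 2 in those of KO. Slc6a5, the plasma membrane glycine transporter of glycinergic terminals, had 1 count in WT and 1 in KO. Markers of Golgi cells, the glycinergic interneurons of the granular layer, were as low: Grm2 and Sst were at 0 in all 6 libraries and Lgi2 had 2 counts.

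Gabrd (chromosome 4, 155384980 to 155398112, minus strand of GRCm38), the delta subunit of extrasynaptic GABA-A receptors, had the largest log2 difference of the 13 tested members. Its counts were 28, 16 and 22 across WT replicates 1 to 3 and 48, 29 and 33 across KO, or 42.0, 24.2 and 31.0 CPM against 61.0, 43.2 and 52.3 CPM. Every KO library lay above every WT library, although KO replicate 2 exceeded WT replicate 1 by little. Its mean was 32.4 ± 8.96 CPM for WT and 52.1 ± 8.88 CPM for KO (SD, n = 3 each). The log2 fold change was 0.69 (SE 0.27, 95% interval 0.12 to 1.26) with an unadjusted p = 0.0205 and an edgeR adjusted p = 0.987, so it did not pass. Without WT replicate 2 it was 0.53 with an unadjusted p = 0.0884, without KO replicate 1 0.55 (unadjusted p = 0.0893), without WT replicate 3 0.65 (unadjusted p = 0.0530), and without both libraries with Y-linked counts 0.65 (unadjusted p = 0.0884). It stayed above 0 in all 15 alternative settings, between 0.53 and 0.91, and its adjusted p was at least 0.904 in each.

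Gabra6 (chromosome 11, 42306437 to 42321072, minus strand) encodes an alpha subunit known from cerebellar granule cells, and its libraries did not separate by genotype. It had 9, 17 and 17 counts in the WT libraries and 15, 13 and 2 in those of KO, or 13.5, 25.7 and 23.9 CPM against 19.1, 19.4 and 3.17 CPM. KO replicates 1 and 2 lay inside the WT range, and KO replicate 3 alone lay below it. Its 2 counts have an exact Poisson 95% interval of 0.242 to 7.22 counts, or up to 11.4 CPM, which is below every other library's value. The intervals of WT replicate 1, KO replicate 1 and KO replicate 2 overlap it, as they began at 6.17, 10.7 and 10.3 CPM. The log2 fold change was -0.56 (SE 0.46, 95% interval -1.53 to 0.41). It was -0.14 without KO replicate 3 and -0.03 without both libraries with Y-linked counts.

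Other granule cell genes gave no such split between the genotypes. The 9 granule cell markers together had 493, 504 and 542 CPM in WT and 539, 474 and 551 in KO, with 0 of the 9 at 0 in all libraries. The sums overlapped, and the highest belonged to KO replicate 3, the library with the low Gabra6. That sum rests on Zic1, at 287 CPM in KO replicate 3 and 176 to 225 CPM in the other libraries. Cbln3, Calb2 and Etv1 had their lowest value in KO replicate 3 (87.1, 3.17 and 4.75 CPM), and the remaining markers had neither extreme there. Of the 7 markers tested 3 lay above 0 and 4 below, with a median log2 fold change of -0.00040. Zic1, a zinc finger factor of granule cells, lay at 0.13 (SE 0.18) and Neurod2, a neuronal bHLH factor, at -0.07 (SE 0.22). The log2 ratio of Gabrd to Gabra6 counts within a library, which needs no scaling (0.5 was added to each count), was 1.58, -0.08 and 0.36 in WT and 1.65, 1.13 and 3.74 in KO. The genotypes overlapped, and the difference of the means of 1.55 became 0.77 without KO replicate 3 and 0.64 without both libraries with Y-linked counts.

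**Figure D3:**
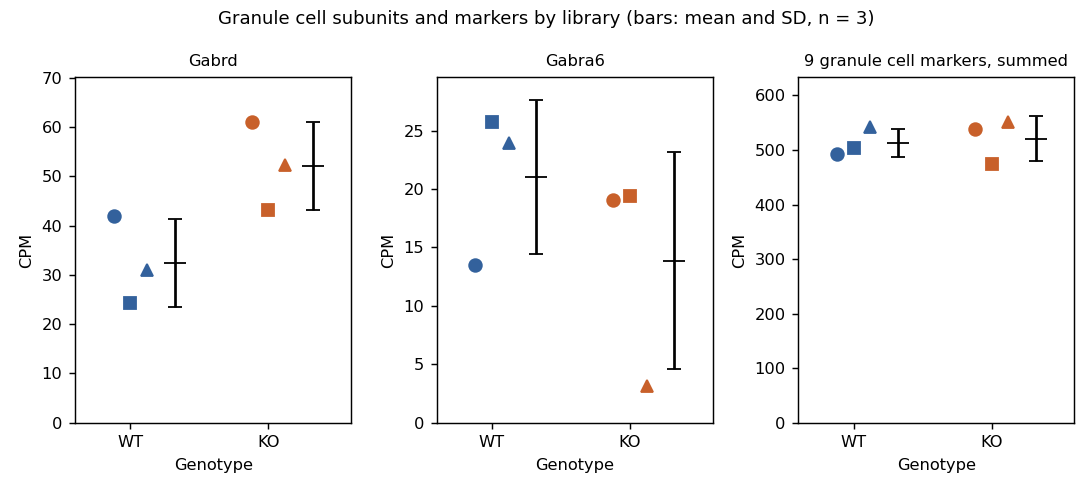
Gabrd, Gabra6 and the sum of 9 granule cell markers (CPM, linear axes from 0), with 1 point per library, circles, squares and triangles for replicates 1 to 3, and bars for the mean and SD (n = 3). The KO points of Gabrd lie above the WT points, Gabra6 has 1 low KO point at 3.17 CPM, and the marker sums overlap.

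The remaining GABA-A alpha subunits were measured less well. Gabra4, which pairs with delta in forebrain extrasynaptic receptors, had 14, 20 and 21 counts in the WT libraries and 10, 15 and 13 in those of KO, or 21.0, 30.3 and 29.6 CPM against 12.7, 22.4 and 20.6 CPM. KO replicates 1 and 3 lay below all of WT, and KO replicate 2 lay just above WT replicate 1. Its log2 fold change of -0.56 (SE 0.34, 95% interval -1.26 to 0.15) had an unadjusted p = 0.116 in edgeR, and it ran from -0.73 to -0.33 over the 15 alternatives. Gabra2, an alpha subunit of synaptic receptors, had 8, 11 and 11 counts in the WT libraries and 9, 10 and 4 in those of KO, and the genotypes overlapped. Gabra3 had 1, 4 and 3 counts in the WT libraries and 3, 5 and 7 in those of KO. Gabra5, the alpha subunit best known from hippocampal extrasynaptic receptors, had 3 counts in all.

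Of the beta and gamma subunits, Gabrb2, a beta subunit of many brain GABA-A receptors, was the deepest read. It had 86.9, 52.9 and 73.2 CPM in WT and 66.1, 53.6 and 58.6 in KO. The KO libraries lay inside the WT range (log2 fold change -0.25, SE 0.23, and -0.09 without WT replicate 1 or -0.42 without WT replicate 2). Gabrb1 had 9, 7 and 5 counts in the WT libraries and 6, 10 and 12 in those of KO. Gabrg1, known from glia among other cells, had 1, 0 and 3 counts in the WT libraries and 1, 3 and 1 in those of KO, and Gabrg3 had 0.

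Some of these subunit genes lie in clusters. Gabrg1, Gabra2, Gabra4 and Gabrb1 follow each other on chromosome 5. Gabra4 (71569749 to 71658308, minus strand) and Gabrb1 (71658113 to 72149037, plus strand) are head to head, their 5′ ends overlap, and they share 46 bases of exon. Per kilobase of exon Gabra4 had 4.32 times the counts of Gabrb1. Within a library the log2 ratio of Gabra4 to Gabrb1 counts was 0.61, 1.45 and 1.97 in WT and 0.69, 0.56 and 0.11 in KO, which overlap. On chromosome 11 Gabra6 (minus strand) and Gabrb2 (plus strand) lie 98.7 kb apart, and on chromosome 7 Gabrg3 and Gabra5 lie 20.5 kb apart.

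As shares of the counts per kilobase over the 10 GABA-A subunit genes, which remove the library scaling, Gabrd took 28.3% ± 6.39 for WT and 44.4% ± 6.28 for KO (SD, n = 3 each). The WT libraries held 35.4%, 23.0% and 26.3% and the KO libraries 47.2%, 37.2% and 48.8%, with no overlap. Gabrb2 took 28.0% ± 5.17 in WT and 22.9% ± 1.93 in KO, Gabra6 21.6% ± 7.74 and 13.2% ± 8.58, and Gabra4 11.3% ± 2.68 and 7.61% ± 2.56 (SD, n = 3 each). These 3 overlapped between the genotypes. Shares of a whole depend on each other, so a larger share of Gabrd lowers the rest. Summed over the 10 genes, CPM came to 183 ± 15.0 for WT and 179 ± 5.90 for KO (SD, n = 3 each). In tissue of several cell types, fewer cells of a type and less RNA per cell cannot be told apart.

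**Figure D4:**
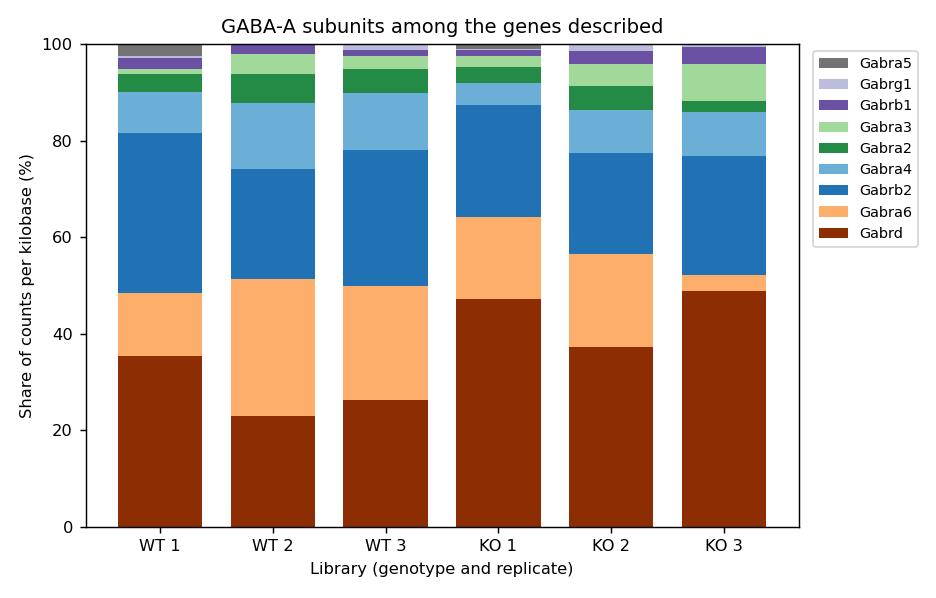
Share of counts per kilobase of exon (%) of each GABA-A subunit gene among the 10 described, stacked to 100% for each library; Gabrg3 had 0 counts and is not drawn. Gabrd, the lowest block, takes 23.0% to 35.4% in WT and 37.2% to 48.8% in KO, and Gabra6 above it is thin in KO replicate 3.

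For the GABA-B receptor, Gabbr1, the subunit that binds GABA, had 112, 103 and 104 CPM in WT and 105, 89.4 and 69.7 in KO. KO replicates 2 and 3 lay below all of WT and KO replicate 1 inside the WT range. The log2 fold change was -0.26 (SE 0.20, 95% interval -0.68 to 0.16). It was -0.42 without KO replicate 1, -0.13 without KO replicate 3 and -0.15 without both libraries with Y-linked counts. Gabbr2, the subunit that couples to the G protein, had 28.5, 33.3 and 22.5 CPM in WT and 19.1, 20.9 and 33.3 in KO, so KO replicate 3 was low in Gabbr1 and high in Gabbr2. Its log2 fold change of -0.22 (SE 0.32) was -0.63 without both libraries with Y-linked counts and -0.06 without KO replicate 1. Per kilobase Gabbr1 had 3.28 times the counts of Gabbr2 in WT and 3.22 times in KO.

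Glycine receptor genes were near the floor except for Glrb, the beta subunit that binds gephyrin. Glrb had 10, 9 and 5 counts in the WT libraries and 9, 8 and 10 in those of KO, with the genotypes overlapping. Of the alpha subunit genes, which carry the glycine site, Glra1 held 2 counts over all libraries, and Glra2 and Glra3 held 0. Glra4, an alpha subunit gene from the list of further subunits below, held 12. These were 1, 3 and 3 counts in the WT libraries and 1, 3 and 1 in those of KO. Gphn encodes gephyrin, the scaffold under GABA-A and glycine receptors. It had 31.5, 39.3 and 36.6 CPM in WT and 26.7, 34.3 and 50.7 in KO. KO replicates 1 and 3 lay on opposite sides of the WT range (log2 fold change 0.04, SE 0.29, and -0.24 without KO replicate 3). Nlgn2, the neuroligin of inhibitory synapses, had 34.5, 36.3 and 31.0 CPM in WT and 36.8, 26.8 and 30.1 in KO, which overlap (log2 fold change -0.11, SE 0.27, and -0.25 without KO replicate 1 or -0.01 without KO replicate 2).

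Chloride cotransporters were read at very different depth. Slc12a5 encodes KCC2, the neuronal exporter of chloride that makes GABA inhibitory. It had 65.9, 84.7 and 63.4 CPM in WT and 67.3, 55.1 and 69.7 in KO. Only KO replicate 2 lay below the WT range (log2 fold change -0.15, SE 0.22, 95% interval -0.61 to 0.31). It was -0.01 without WT replicate 2, -0.06 without KO replicate 2 and -0.30 without both libraries with Y-linked counts. Slc12a2 encodes NKCC1, which imports chloride. It had 11, 7 and 4 counts in the WT libraries and 15, 10 and 4 in those of KO, and replicate 3 was the lowest in both genotypes. Per kilobase Slc12a5 had 9.66 times the counts of Slc12a2 in WT and 6.78 times in KO, and the log2 ratio within a library overlapped between them (2.73 ± 0.71 and 2.31 ± 0.86, SD, n = 3 each).

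Setting Gabra6 and Gabrd apart, the other 24 genes summed to 673, 653 and 621 CPM in WT and 610, 586 and 608 in KO. The KO sums lay below the WT sums, with a log2 ratio of the means of -0.11, within which Gad1, Gabbr1, Gabrb2, Slc12a5 and Abat carry most counts. The 2 granule cell subunits summed to 55.5, 49.9 and 54.9 CPM in WT and 80.0, 62.6 and 55.4 in KO, which overlap. Over all 26 genes the sums were 703 ± 26.2 CPM for WT and 667 ± 21.1 CPM for KO (SD, n = 3 each) and overlapped too. These sums were not tested. Markers of the cells of the tissue are given beside them, and 0 of them passed the adjusted test in edgeR, with 6 at an unadjusted p under 0.05 (background 4.62%). The 6 were 2 of 10 tested Purkinje cell markers, 3 of 8 of astrocytes and Bergmann glia and 1 of 3 of molecular layer interneurons. All of them lay lower in KO, and 0 of 7 granule cell and 0 of 3 oligodendrocyte markers were among them. The 11 Purkinje cell markers summed to 2958 to 3678 CPM in WT and 2261 to 2752 in KO, with no overlap. Within these sums Itpr1 alone averaged 1733 CPM in WT and 1250 in KO. Of the 10 tested Purkinje cell markers 2 lay above 0 and 8 below. The 8 markers of astrocytes and Bergmann glia summed to 911 to 1119 in WT and 663 to 929 in KO, and 6 markers of molecular layer interneurons to 222 to 251 in WT and 186.7 to 238.4 in KO, both overlapping. Granule cell markers (513 CPM in WT and 521 in KO on average) and oligodendrocyte markers (115 and 114) overlapped as well. The part of cell makeup in the values of the 24 genes was not tested.

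Proteins around these receptors were read from 6 further lists of 120 genes, of which 63 were tested. With edgeR 0 of the 63 passed the adjusted p, 25 lay above and 38 below 0, and 6 had an unadjusted p under 0.05 (background 4.62%). For receptor trafficking and auxiliary proteins 6 of 14 tested genes lay above 0 and 8 below (median -0.06). Its members with the highest level per kilobase were Gabarapl2 (0.05, SE 0.30) and Gabarapl1 (-0.31, SE 0.30), relatives of the receptor-associated protein GABARAP. Gabarapl1 shares 570 bases of exon with 1700101I11Rik on the opposite strand, which had a mean count of 168.3 against 19.2. Named after its value was seen, Gabarap itself lay at -1.24 (95% interval -2.41 to -0.07, edgeR unadjusted p = 0.0396). Ubqln1, a ubiquilin that binds GABA-A subunits, was named likewise and lay at -0.53 (95% interval -1.06 to -0.0071, edgeR unadjusted p = 0.0473). For both the edgeR adjusted p = 0.987, and the CPM of the genotypes overlapped. Gabarap had 8, 13 and 12 counts in the WT libraries and 2, 2 and 10 in those of KO. For organisers of the inhibitory synapse 5 of 11 lay above 0 and 6 below (median -0.03). Dynll2, a dynein light chain that binds gephyrin, lay at -0.44 (SE 0.21, unadjusted p = 0.0451), and Pfn1, an actin binding profilin, at 0.29 (SE 0.27).

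Among genes of chloride and bicarbonate handling 4 of 12 lay above 0 and 8 below (median -0.20). For metabolism and uptake of GABA, glutamine and glycine 4 of 14 lay above 0 and 10 below (median -0.05), with Amt, of the glycine cleavage system, at 0.05 (SE 0.14) and Glul, glutamine synthetase, at -0.01 (SE 0.25). Slc38a1 of this list, named after its value was seen, lay at -0.45 (SE 0.16, edgeR unadjusted p = 0.0105, adjusted p = 0.916). Its CPM did not overlap (background 10.7%), at 244.3, 226.8 and 201.4 in WT and 162.6, 150.5 and 180.5 in KO. For the list drawn up as GABA-B effectors 6 of 12 lay on each side (median 0.02). Gnal is on it as a G protein subunit and is not an established partner of the GABA-B receptor. The G protein subunits Gng3 and Gnal lay at 0.43 (SE 0.18, unadjusted p = 0.0302) and 0.18 (SE 0.13), and both share exon with an opposite-strand gene (398 and 852 bases). The 7 further GABA-A and glycine receptor subunits had 0 tested genes, and 4 of them were at 0 in every library.

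The authors' own tables give Gabrd the lowest p of the 26 as well. The authors' deposited DESeq table puts Gabrd of KO at 1.65 times WT (p = 0.0149). In the authors' deposited edgeR table its log2 ratio, taken as WT to KO, is -0.71 (p = 0.0126), and neither p is adjusted. For Gabra6 the authors' deposited DESeq table has a fold of 0.670 (p = 0.381), and for Gabra4 a fold of 0.705 (p = 0.165). These tables were made from the same 6 libraries.

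**Figure D5:**
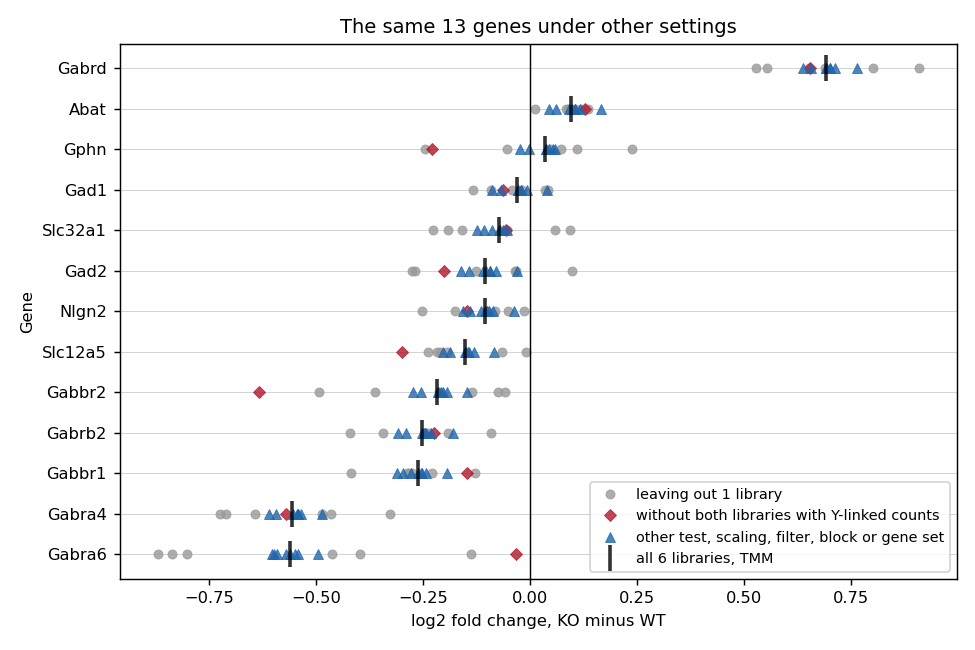
log2 fold change (KO minus WT) of the 13 tested genes with all 6 libraries (bars), leaving out 1 library (grey), without both libraries with Y-linked counts (red) and under the other tests, scalings, filters, block and gene set (blue). Gabrd lies above 0 throughout, from 0.53 to 0.91, and the points of Gabra6 reach from -0.87 to -0.03.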

How the data were processed

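RNA-seq counts of 6 libraries (3 WT, 3 KO) were used. Per the labels' protocols, TRIzol RNA went through a TruSeq mRNA kit and was read as single ends on a HiSeq. The submitters' processing notes name TopHat, HTSeq 0.9.1, DESeq, edgeR and build GRCm38. The deposited files give counts as whole numbers for each gene symbol, and the HTSeq rows that name no gene (98.8% of uniquely aligned reads per library) were left out. The authors also deposited a DESeq table (normalised mean signal, a ratio or fold, a p-value) and an edgeR table (log2 ratio, log2 CPM, p-value), used for description. Not used here was 1 column of the DESeq table.

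Tests used edgeR 4.0.16 in R 4.3.3 (glmQLFit, glmQLFTest, TMM factors 0.958 to 1.03, minimum count 10, Benjamini-Hochberg over 5320 genes, two-sided), with all 6 libraries and no covariate. CPM is counts scaled to a common total, with libraries of 645994 to 764839 counts times their TMM factors. The fit was tested on simulated data. Alternatives were DESeq2 1.42.0, other scalings and filters, a replicate block and leaving out libraries. All 26 members are named, and of each pathway list the 2 tested genes with the highest counts per kilobase, except for the chloride list, whose genes are not reported here. Members and lists were chosen with earlier results of these data known. Positions, lengths and overlaps (50 bases) are from GENCODE M21, matched for 95.5% of symbols by name.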

Additional observations from a re-analysis of the deposited data

How the results depend on the processing

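With 6 libraries of this depth, 10 tested members had a 95% interval inside a 2-fold difference in either direction, and for 3 it reached beyond. Over all genes 0 were called, against 6 with no filter on low counts, 1 when both libraries having Y-linked counts were dropped and from 0 to 1 when each replicate was left out; the cause was not tested, and none of these was a member. The 246 genes at an unadjusted p of 0.05 became 96 with DESeq2, 638 with no filter and, for a set chosen after the data were examined, 131 among genes with no opposite-strand exon overlap, where fewer genes were tested. The share of them higher in KO, 34.1%, came to 17.5% when scaled to uniquely aligned reads (added after the data were examined) and 23.3% with raw library sizes. Of the 13 members 9 kept their direction in every alternative. The exceptions were Gad1 (0.040 among genes with no overlap, and -0.13 to 0.043 leaving out each replicate), Gad2 (-0.28 to 0.10 leaving out each replicate), Slc32a1 (-0.23 to 0.092 leaving out each replicate) and Gphn (-0.0040 with raw library sizes, -0.024 with scaling to uniquely aligned reads, -0.23 without both libraries with Y-linked counts, -0.24 to 0.24 leaving out each replicate); the cause was not tested. The members' median of -0.11 ranged from -0.24 (without WT replicate 3) to -0.076 (without WT replicate 2), was -0.16 without KO replicate 1 and -0.16 with scaling to uniquely aligned reads. The replicate block called 0 genes, had 287 at an unadjusted p of 0.05 and changed no call. The labels name no pairing; deviations of libraries with equal numbers correlated at 0.143, 0.0795 and 0.122 over 5320 genes, and each library correlated best with its own number.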

Other observations

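Several members had their extreme value in KO replicate 3, in either direction. This library held the lowest CPM of the 6 for Gabra6 (3.17), Gabra2 (6.33), Slc32a1 (15.8) and Gabbr1 (69.7), and the highest for Gad1 (107.7), Gphn (50.7), Glrb (15.8), Gabrb1 (19.0) and Gabra3 (11.1). Its 659213 gene counts lay inside the range of the other libraries. It had the fewest genes with a count (12942), the lowest share of uniquely aligned reads in genes (1.155%) and the lowest TMM factor (0.958). In WT replicate 3, the other library with Y-linked counts, Slc12a2 stood at 5.63 CPM beside 6.33 in KO replicate 3, against 10.6 to 19.1 CPM in the other 4 libraries. Such extreme values were not particular to KO replicate 3. WT replicate 2 held the highest CPM for Slc32a1 (27.2), Gabra2 (16.6), Gabra4 (30.3), Gabra6 (25.7), Gabbr2 (33.27), Slc12a5 (84.7) and Slc6a11 (6.05). It held the lowest for Gabrb2 (52.9), Gabrd (24.2) and Gabrg1 (0). These values were picked after they were seen and were not tested.

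Gad1os, annotated on the strand opposite Gad1 with no exon shared, had 8, 10 and 6 counts in the WT libraries and 7, 5 and 3 in those of KO, beside 56 to 75 counts of Gad1 per library.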
